A study of Mus musculus with 6 samples.

Results

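The Hox genes are the homeobox transcription factor genes that lie in the clusters A, B, C and D, and they were followed here between the 2 compartments of the embryonic mouse bladder. Members were all genes of the array whose symbol is Hoxa, Hoxb, Hoxc or Hoxd with a number and nothing after it, measured by a probe set that the platform's annotation gives to a single gene. There were 33 such genes among 18193 measured genes, read from 48 of 34945 single-gene probe sets: 9 of cluster A, 9 of cluster B, 7 of cluster C and 8 of cluster D. Hoxa6, Hoxb8, Hoxc11, Hoxc12 and Hoxd4 were not analysed here. The groups were urothelium (epithelial cells, arrays 5, 7 and 8) and mesenchyme (arrays 1, 2 and 4), both from wild-type FVB/N mouse bladders at embryonic day 13 (Theiler stage 21), sex unknown. Bladders were cut just above the ureters, soaked for 20 minutes in 20 µM EDTA, which loosens an epithelium from the tissue below it, and parted with a needle. The labels give no pooling, but they do not tie each array to an embryo of its own; p-values therefore rest on the spread among these 6 arrays alone, and that spread may be technical.

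Hox proteins bind DNA through the homeodomain and give cells their position along the head to tail axis. Genes at the same place in different clusters descend from 1 ancestral gene and share a number, the paralog group; low numbers are in general used further forward and high numbers further back. Group 13 genes act in the hindgut, the urogenital sinus, from which the bladder forms, and the genital tubercle, and in the mouse Hoxa13 and Hoxd13 are needed there.

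In the compartments as dissected, 13 of 15 measured epithelial markers were higher in urothelium and 14 of 14 mesenchymal markers were higher in mesenchyme, led by Trp63, Shh and Foxa1 (log2 differences of 8.24, 8.10 and 7.92) and by Cdh11, Postn and Snai2 (−6.14, −5.70 and −5.63). The summed signal of the epithelial markers was 490962 to 559346 on urothelium arrays and 10125 to 13834 on mesenchyme arrays. The mesenchyme is a mixed tissue. Of the markers of other cells, 6 of 7 for smooth muscle, 6 of 6 for endothelium, 2 of 5 for mesothelium and 3 of 6 for blood were higher in it, while 2 of the mesothelial list, Msln (5.16) and Krt19 (4.49), were higher in urothelium. The largest differences in the other lists were −5.39 for Actg2, −4.94 for Cdh5 and −3.97 for Csf1r. The summed signal of the blood markers overlapped, at 57053 to 103716 on urothelium arrays and 74159 to 91490 on mesenchyme arrays. Hbb-y, the brightest of them, differed by 0.05 and did not pass. In bulk samples of this kind fewer cells of a type and less RNA per cell cannot be told apart. All differences here are urothelium minus mesenchyme on the log2(signal + 45) scale, with the moderated standard error (SE) of limma. A gene passed the test if its p was under 0.05 after Benjamini-Hochberg adjustment across all 18193 genes.

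The Hox genes that passed the test lay on both sides of the comparison. Hoxb13 and Hoxd1 were much higher in urothelium, by 6.65 ± 0.44 and 4.76 ± 0.47 (SE). Hoxa9, Hoxb3, Hoxb5, Hoxb6 and Hoxd8 were higher in urothelium by 1.64 to 2.15, and Hoxc4, Hoxc8 and Hoxc10 were lower in urothelium, by −2.06 to −1.93. The remaining 23 members did not pass. In all, 7 of 33 members passed as higher in urothelium, where 5.75% of all genes did, and 3 as higher in mesenchyme, where 8.99% of all genes did. The median member differed by 0.25 and the median gene by −0.11. The arrays of the compartments did not overlap for 11 members higher in urothelium and 5 higher in mesenchyme, 16 of 33 in all, against 12.0%, 18.2% and 30.2% of all genes.

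**Figure D1:**
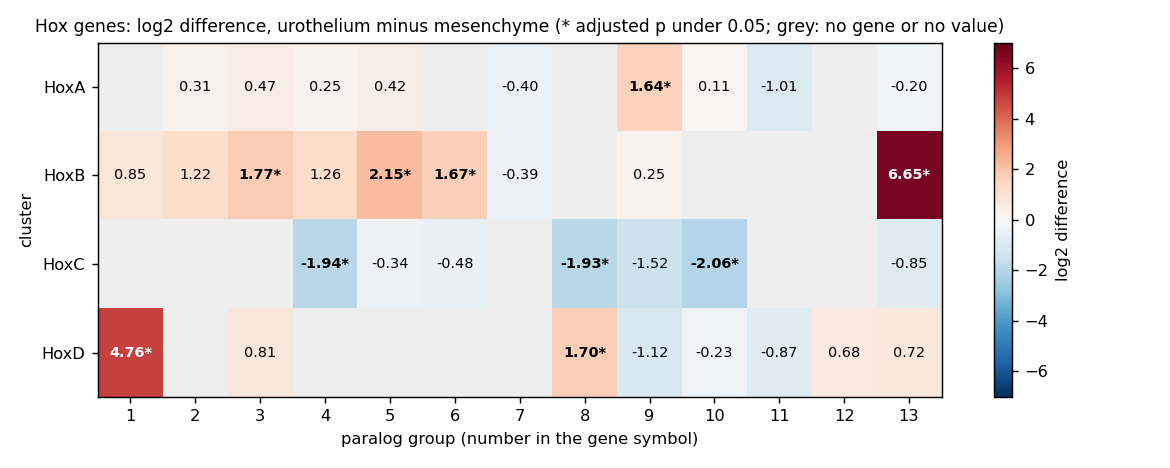
The log2 difference, urothelium minus mesenchyme, of each Hox gene, with clusters down the page and paralog groups across it; red is higher in urothelium, blue is higher in mesenchyme, and an asterisk marks an adjusted p under 0.05. All 7 members of cluster C are negative, 8 of 9 members of cluster B are positive, and the largest values are those of Hoxb13 (6.65) and Hoxd1 (4.76).

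By cluster, the median difference was 0.25 in A, 1.26 in B, −1.52 in C and 0.70 in D. Members ranged between −1.01 and 1.64 in A, −0.39 and 6.65 in B, −2.06 and −0.34 in C, and −1.12 and 4.76 in D. The difference was positive for 6 of 9 members of A, 8 of 9 of B, 0 of 7 of C and 5 of 8 of D. With arrays centred on their medians, which moved the median gene to 0.06, these counts were 6, 8, 0 and 6, and relative to the median gene they were 6, 8, 0 and 5 under both scalings. Array weights turned the signs of Hoxb7 and Hoxa13 and made the count 9 of 9 for B and 7 of 9 for A. By paralog group, the 7 members of groups 1 to 3 were all positive with a median of 0.85, the 12 members of groups 4 to 8 were divided 6 to 6 (median −0.04), and of the 14 members of groups 9 to 13 there were 6 positive and 8 negative (median −0.21). Cluster C has no gene of groups 1 to 3, so its negative members all fall in the later groups. Outside cluster C the negative members were Hoxa7 and Hoxb7 in groups 4 to 8, and Hoxa11, Hoxa13, Hoxd9, Hoxd10 and Hoxd11 in groups 9 to 13. The part of cluster C in that order was not tested. No difference between clusters or between paralog groups was tested.

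**Figure D2:**
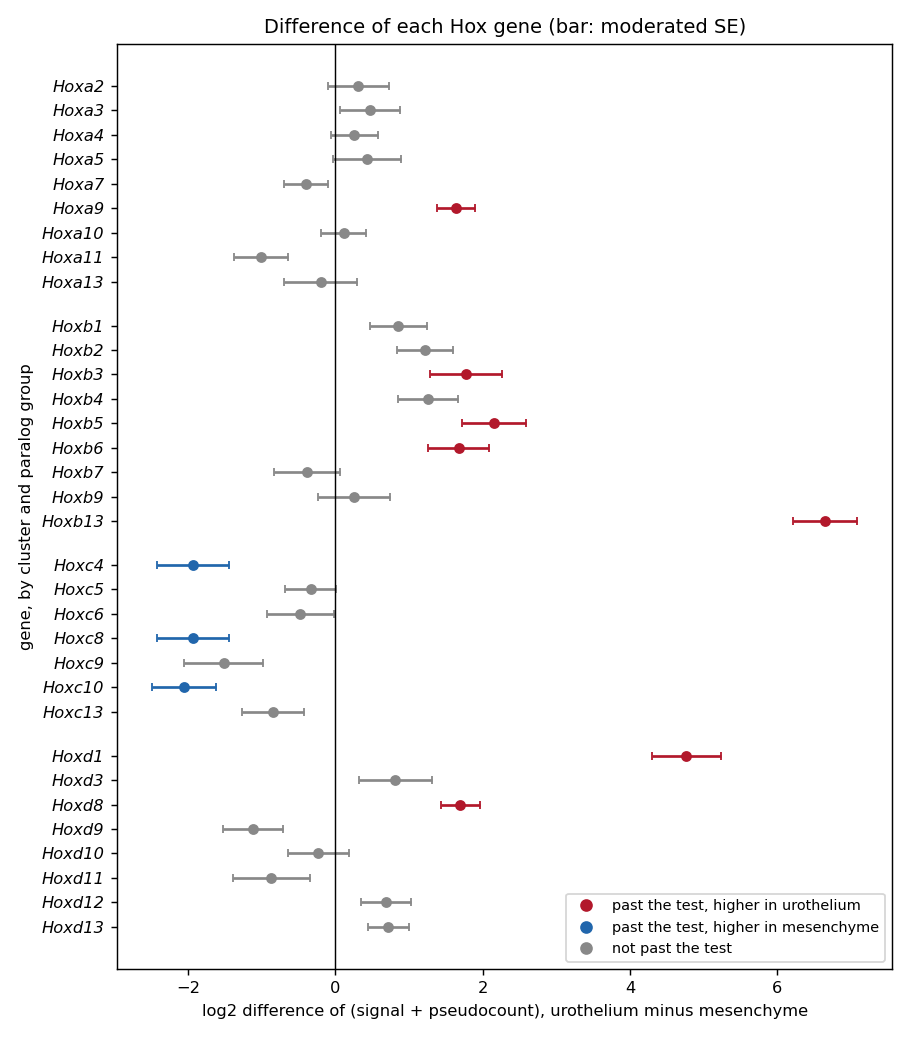
The log2 difference of (signal + 45), urothelium minus mesenchyme, of the 33 Hox genes (points) with the moderated SE (bars), ordered by cluster and paralog group; red and blue points passed the test. The 10 coloured points are 7 genes higher in urothelium, from clusters A, B and D, and 3 genes higher in mesenchyme, all from cluster C.

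Of the 10 members past the test, 4 had a promoter in the RefSeq table used here, and these sequences are printed since they come from genes that differed in opposite directions. Each is 300 bases long, from 250 before to 50 after the gene's start, in build GRCm38.p6, written 5′ to 3′. Capitals mark AGGTCA, a binding motif of nuclear receptors such as the retinoic acid receptors, on either strand.
Hoxa9, chr6:52227321-52227620 (- strand): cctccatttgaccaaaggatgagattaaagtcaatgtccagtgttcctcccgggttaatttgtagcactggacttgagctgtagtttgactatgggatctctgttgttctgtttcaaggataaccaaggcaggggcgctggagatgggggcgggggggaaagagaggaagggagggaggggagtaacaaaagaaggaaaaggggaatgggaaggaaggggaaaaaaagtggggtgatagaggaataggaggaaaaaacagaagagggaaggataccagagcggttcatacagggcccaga
Hoxd1, chr2:74762730-74763029 (+ strand): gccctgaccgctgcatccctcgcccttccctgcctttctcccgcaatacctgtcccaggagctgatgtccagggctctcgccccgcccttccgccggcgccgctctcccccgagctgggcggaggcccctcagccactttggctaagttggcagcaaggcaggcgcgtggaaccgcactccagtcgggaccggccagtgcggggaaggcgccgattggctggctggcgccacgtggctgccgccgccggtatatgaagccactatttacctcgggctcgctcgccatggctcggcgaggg
Hoxd8, chr2:74704365-74704664 (+ strand): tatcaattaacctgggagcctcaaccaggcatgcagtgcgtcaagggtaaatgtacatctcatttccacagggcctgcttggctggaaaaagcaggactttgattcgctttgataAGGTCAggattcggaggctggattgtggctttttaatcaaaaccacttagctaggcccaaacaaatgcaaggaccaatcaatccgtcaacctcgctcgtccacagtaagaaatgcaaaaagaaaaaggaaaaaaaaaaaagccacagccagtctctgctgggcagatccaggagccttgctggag
Hoxc4, chr15:103034145-103034444 (+ strand): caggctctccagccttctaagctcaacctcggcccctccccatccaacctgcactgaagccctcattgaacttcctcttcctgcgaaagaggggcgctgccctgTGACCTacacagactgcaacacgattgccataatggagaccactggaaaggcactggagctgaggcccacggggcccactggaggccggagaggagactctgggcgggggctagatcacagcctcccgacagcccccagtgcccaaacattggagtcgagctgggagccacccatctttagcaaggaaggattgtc
The first 3 belong to genes higher in urothelium and the last to a gene higher in mesenchyme. AGGTCA was matched in Hoxd8 and Hoxc4, in 6 of the 19 members with a promoter in the table, and in 16% of all 27025 promoters searched. The other motifs searched on both strands were TATAAA (the TATA box), TGATNNAT (bound by Pbx and Hox proteins together), TGACAG (bound by Meis proteins) and CAATAAA (bound by group 13 Hox proteins). They were matched in 1, 2, 2 and 0 of the 19 and in 14.2%, 9.04%, 19.3% and 4.84% of all promoters, and in none of the 4 printed. The printed promoters held 4 (Hoxa9), 29 (Hoxd1), 6 (Hoxd8) and 9 (Hoxc4) CG dinucleotides, where the median was 14 over the 19 members and 7 over all promoters.

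Cluster B held the largest difference of the family. Hoxb13, the gene at the tail end of the cluster, had signals of 3861, 6551 and 9672 on urothelium 5, 7 and 8, against 34.9, 16.2 and 5.91 on mesenchyme 1, 2 and 4. Every urothelium array was far above every mesenchyme array. The mesenchyme signals were all below the 45 added before the logarithm, so the size of the difference depends on that number: it was 8.59 with 1 added and 5.03 with 179 added, against 6.65 ± 0.44 in the fit reported (limma adjusted p = 5.06e-06). It passed in all 6 fits that left out 1 array, at 6.33 to 6.99. The nearest measured gene of the cluster, Hoxb9, had means of 265.8 ± 20.5 in urothelium and 250.5 ± 185.0 in mesenchyme (SD, n = 3 each) and differed by 0.25 ± 0.49, with overlapping arrays. Hoxb13 is also known from the hindgut, and of 6 measured hindgut markers 2, Cdh17 (2.25) and Vil1 (1.41), were higher in urothelium. The other 4 did not pass, Cdx1 and Cdx2 among them. Cdx1 had signals of 6.68 to 11.7 on urothelium arrays and 3.83 to 18.3 on mesenchyme arrays. For Cdx2 they were 30.9 to 94.6 and 38.7 to 102. The summed signal of the 6 hindgut markers was 1438 to 2417 in urothelium and 602.3 to 836.1 in mesenchyme, and their part in the Hoxb13 result was not tested.

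Further forward in the same cluster, Hoxb5 had signals of 392.9, 434.6 and 325.4 on the urothelium arrays and 27.8, 111.3 and 32.7 on the mesenchyme arrays. It differed by 2.15 ± 0.43 (limma adjusted p = 0.00617) and passed in all 6 fits that left out 1 array (1.95 to 2.50). With 1 added before the logarithm the difference was 3.001, and with 179 added it was 1.27. Hoxb5 is a gene with known roles in gut innervation. Hoxb6 had 659.0, 577.0 and 506.8 in urothelium, against 114.1, 127.4 and 227.6 in mesenchyme. Again no array overlapped, and the difference was 1.67 ± 0.41 (limma adjusted p = 0.0194). That call was lost without urothelium 5 (1.58), urothelium 7 (1.67) or mesenchyme 2 (1.58), and without both mesenchyme 1 and urothelium 5 (1.43). Hoxb3, a gene of hindbrain patterning, had 1376, 645.7 and 728.9 in urothelium, against 376.0, 113.0 and 243.0 in mesenchyme (1.77 ± 0.49, limma adjusted p = 0.0332). Its highest urothelium signal came from array 5 and its highest mesenchyme signal from array 1. The call was lost in 5 of 6 fits that left out 1 array: without urothelium 5 (1.45), urothelium 7 (1.97), urothelium 8 (1.89), mesenchyme 2 (1.39) or mesenchyme 4 (1.82). The second probe set of Hoxb3 differed by 0.12 ± 0.63, and in the mean of both the call was also lost (0.94).

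Hoxb1, Hoxb2 and Hoxb4 of the same cluster also had arrays that did not overlap, but they did not pass. Hoxb2 had 994.3, 1449 and 1564 in urothelium, against 719.2, 375.7 and 572.4 in mesenchyme (1.22 ± 0.38, limma adjusted p = 0.0580). It passed in 9 of 17 alternative fits, among them that without mesenchyme 1 (1.41). Hoxb4 had 276.0, 254.1 and 132.8 in urothelium, against 85.8, 42.9 and 63.4 in mesenchyme (1.26 ± 0.40, limma adjusted p = 0.0654), and passed in 5 of 16. Hoxb1 had 105.0, 212.3 and 187.0 in urothelium, against 65.7, 56.2 and 90.1 in mesenchyme (0.85 ± 0.39, limma adjusted p = 0.198). Hoxb7 was the 1 member of the cluster with a negative difference (−0.39 ± 0.44), and its sign was positive in 3 of 16 alternatives. Its signals were 24.3, 64.0 and 99.2 in urothelium, against 188.0, 62.3 and 52.0 in mesenchyme, so that array 1 alone stood above the others.

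**Figure D3:**
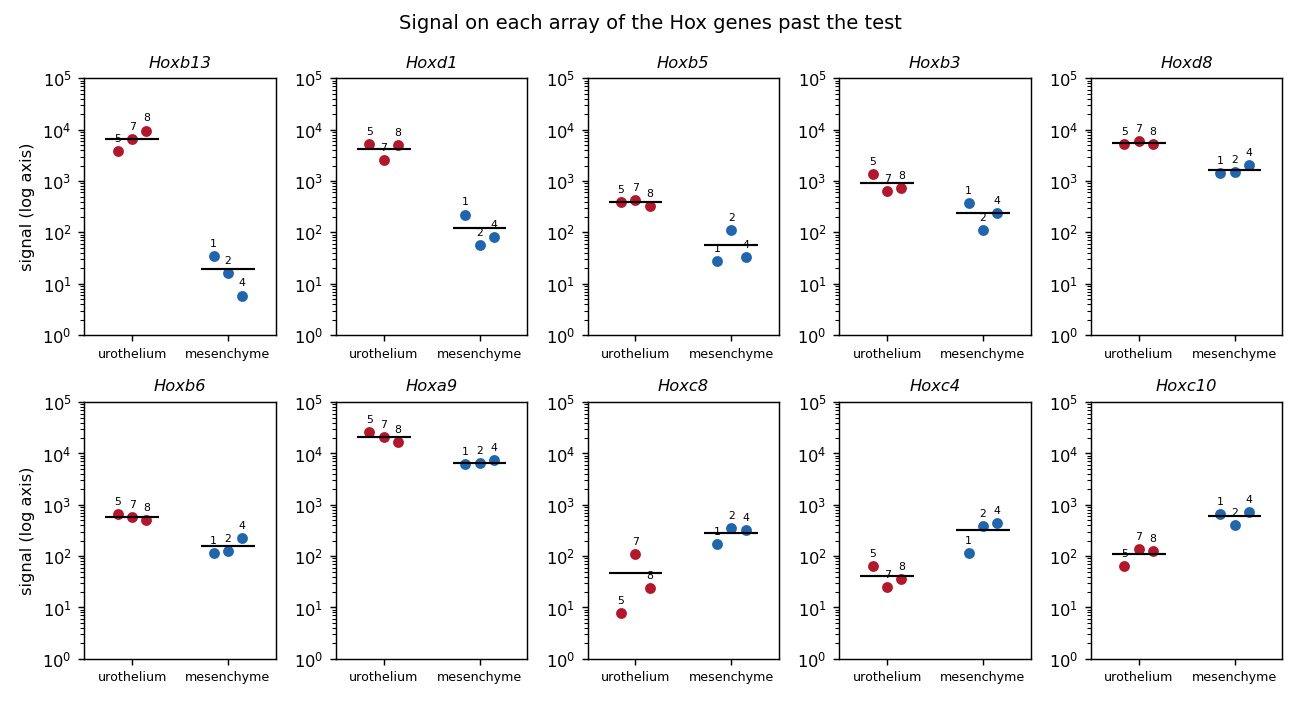
Signal on each array (log axis) of the 10 Hox genes past the test, with the array's number beside each point and the mean of each compartment as a line. In every panel the 3 urothelium points lie wholly above or wholly below the 3 mesenchyme points; Hoxb13 has the widest gap, its lowest urothelium signal being 3861 and its highest mesenchyme signal 34.9.

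In cluster D the largest difference was that of Hoxd1, the gene at its head end, known in the mouse for patterning pain-sensing neurons. Its signals were 5250, 2549 and 5051 in urothelium and 223.5, 56.2 and 83.2 in mesenchyme, a difference of 4.76 ± 0.47 (limma adjusted p = 5.68e-05). The lowest urothelium array was more than 10 times the highest mesenchyme array, and the gene passed in all 6 fits that left out 1 array (4.47 to 5.18). Hoxd3, the next measured gene of the cluster, had overlapping arrays, with means of 487.9 ± 237.8 in urothelium and 263.2 ± 153.4 in mesenchyme (SD, n = 3 each), and differed by 0.81 ± 0.50. Hoxd8 had 5326, 5946 and 5174 in urothelium, against 1451, 1533 and 2038 in mesenchyme, with little spread in either compartment. Its difference of 1.70 ± 0.27 (limma adjusted p = 0.00138) passed in all 17 alternative fits, but its second probe set, with 4163, 1868 and 2587 in urothelium and 2321, 2222 and 1834 in mesenchyme, overlapped and differed by 0.36 ± 0.34. In the mean of both probe sets the difference was 1.03.

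The later genes of cluster D, which in the mouse act in the limbs and the genital tubercle, did not pass. Hoxd9 had 283.2, 201.6 and 243.2 in urothelium, against 664.2, 677.5 and 420.8 in mesenchyme, without overlap (−1.12 ± 0.40, limma adjusted p = 0.100). It passed in 3 of 16 alternatives. Hoxd10 (−0.23 ± 0.42) and Hoxd11 (−0.87 ± 0.52) overlapped. Hoxd13 had 37651, 25819 and 24309 in urothelium, against 21024, 14089 and 17782 in mesenchyme. Signals of the probe set used for the gene were thus high in both compartments and did not overlap. The difference of 0.72 ± 0.28 did not pass (limma adjusted p = 0.125), except with array weights (0.73) or with the actin ratio in the model (0.69). The second probe set of Hoxd13 was at 6.53 to 95.1 in urothelium and 11.2 to 74.6 in mesenchyme, overlapped and differed by 0.04 ± 0.43. Hoxd12 differed by 0.68 ± 0.34.

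All 3 members past the test as higher in mesenchyme belonged to cluster C, whose 7 measured members all had a negative difference. None of the 7 had a mean signal above that of the median gene. With array weights, with probe sets averaged or with untrended eBayes, Hoxa11 of cluster A and Hoxd9 of cluster D passed as higher in mesenchyme too. Hoxc10, a gene of the lumbar spinal cord and hindlimb, had signals of 65.3, 135.2 and 124.5 in urothelium and 657.4, 406.4 and 718.9 in mesenchyme. It differed by −2.06 ± 0.43 (limma adjusted p = 0.00777) and passed in all 6 fits that left out 1 array (−2.29 to −1.83). Hoxc8, a gene of the brachial spinal cord and ribs, had 7.73, 109.7 and 24.0 in urothelium, against 170.7, 352.1 and 321.4 in mesenchyme. For Hoxc4 the signals were 63.5, 25.1 and 35.2 in urothelium, against 117.3, 384.3 and 446.9 in mesenchyme. Neither gene overlapped between compartments, and both were lowest in mesenchyme on array 1. Hoxc8 differed by −1.93 ± 0.49 and Hoxc4 by −1.94 ± 0.49 (limma adjusted p = 0.0208 and 0.0206). Their size depends on the number added before the logarithm: with 1 added it was −3.22 for Hoxc8 and −2.80 for Hoxc4, and with 179 added −1.03 and −1.10, all past the test. The call of Hoxc8 was lost without urothelium 5 (−1.61), urothelium 8 (−1.80), mesenchyme 2 (−1.77) or mesenchyme 4 (−1.83), and that of Hoxc4 was lost without urothelium 7 (−1.80), urothelium 8 (−1.90), mesenchyme 2 (−1.74) or mesenchyme 4 (−1.64), or after quantile normalization (−1.74).

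The other members of cluster C were lower in mean signal in urothelium but overlapped. Hoxc9 had 32.0, 169.0 and 41.8 in urothelium, against 538.6, 161.6 and 233.5 in mesenchyme (−1.52 ± 0.54, limma adjusted p = 0.0957). Hoxc13, known from hair and nails, had 7.26, 19.1 and 8.83 in urothelium, against 157.9, 13.3 and 45.1 in mesenchyme (−0.85 ± 0.42). For both, and for Hoxc6 (−0.48 ± 0.45), the highest mesenchyme signal was that of array 1. Hoxc5 differed by −0.34 ± 0.35. Without both mesenchyme 1 and urothelium 5 all 7 members of cluster C still had a negative difference, with a median of −0.82. Several Hox genes are also used in neurons, and of 7 measured neural and glial markers 1, Stmn2 (−2.00), was higher in mesenchyme and 1, Ret (3.50), in urothelium; Elavl4 differed by −1.82 without passing. Stmn2 had 288.7, 279.0 and 343.9 in urothelium, against 3059, 695.2 and 1131 in mesenchyme. The summed signal of the 7 was 4411 to 5006 in urothelium and 1899 to 6488 in mesenchyme, and their part in the cluster C result was not tested.

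In cluster A 1 of 9 members passed. Hoxa9, known from blood progenitors and the lumbosacral skeleton, had 26198, 20637 and 16378 in urothelium, against 6174, 6415 and 7331 in mesenchyme. The compartments were well apart, by 1.64 ± 0.26 (limma adjusted p = 0.00140), and the gene passed in all 17 alternative fits. Its second probe set gave 291.6, 581.3 and 452.0 in urothelium and 118.8, 229.9 and 184.5 in mesenchyme, without overlap and in the same direction (1.11 ± 0.46). Hoxa10, its neighbour in the cluster and a gene of uterine development, had 5791 ± 436 in urothelium and 5621 ± 2223 in mesenchyme (SD, n = 3 each) and differed by 0.11 ± 0.31. Hoxa11, the next gene, had 349.2, 347.8 and 293.5 in urothelium, against 633.9, 787.6 and 715.8 in mesenchyme, without overlap (−1.01 ± 0.37, limma adjusted p = 0.105). It passed in 3 of 16 alternatives. Hoxa9 and Hoxa11 thus had differences of opposite sign. Hoxa13 overlapped (−0.20 ± 0.50), and its sign was positive in 4 of 16 alternatives. Hoxa3 (0.47 ± 0.41), Hoxa5 (0.42 ± 0.46) and Hoxa4 (0.25 ± 0.32) also overlapped, as did Hoxa2 and Hoxa7, and the mean signal of Hoxa4 was below 45 in both compartments. A difference that did not pass does not show that levels were the same.

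Read across clusters, group 8 was the only paralog group with members past the test in both directions in the fit reported. In it Hoxd8 passed as higher in urothelium (1.70) and Hoxc8 as higher in mesenchyme (−1.93). The call of Hoxc8 was lost without urothelium 5, urothelium 8, mesenchyme 2 or mesenchyme 4. Mixed signs in other groups rest on members that did not pass in the fit reported. Group 4 (Hoxb4 and Hoxc4) joined group 8 with arrays centred on their medians, no trend, array weights or the actin ratio as covariate. Group 9 (Hoxa9 and Hoxd9) did so with no trend, array weights or averaged probe sets. In group 13 Hoxb13 passed (6.65), while Hoxd13 (0.72), Hoxa13 (−0.20) and Hoxc13 (−0.85) did not. Group 9 had Hoxa9 past the test (1.64), with Hoxb9 at 0.25, Hoxd9 at −1.12 and Hoxc9 at −1.52. For group 4 the values were −1.94 for Hoxc4, which passed, 1.26 for Hoxb4 and 0.25 for Hoxa4. Both measured members of group 1, Hoxd1 (4.76) and Hoxb1 (0.85), had arrays that did not overlap and positive differences, of which that of Hoxd1 passed and that of Hoxb1 did not. The 3 measured members of group 3 had positive differences too, at 1.77 for Hoxb3, which passed, 0.81 for Hoxd3 and 0.47 for Hoxa3. Whether the differences of paralogs differ from each other was not tested.

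Of the members, 22 rested on a single probe set and 11 on more than 1. For 9 of these 11 all probe sets had a difference of the same sign, and for Hoxa3 and Hoxc5 they did not. In a fit of every probe set by itself, adjusted over all 45037 and with 7.34% of them past the test, 7 of 48 Hox probe sets passed: those of Hoxa9, Hoxb5, Hoxb6, Hoxb13, Hoxc10, Hoxd1 and Hoxd8. The probe sets of Hoxb3, Hoxc4 and Hoxc8 had limma adjusted p of 0.0538, 0.0526 and 0.0531 there.

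**Figure D4:**
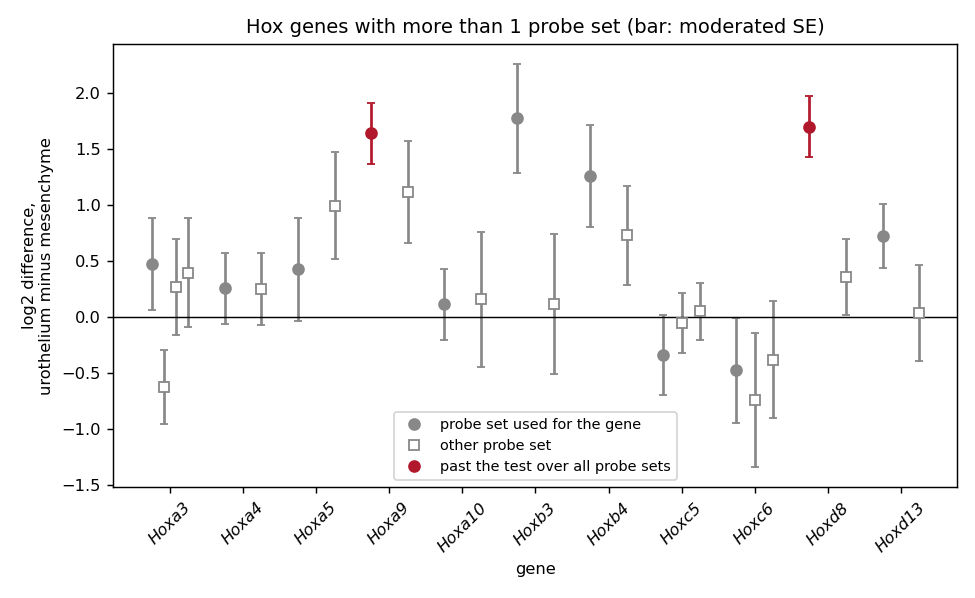
The log2 difference of each probe set, urothelium minus mesenchyme, with the moderated SE, for the 11 Hox genes with more than 1 probe set; circles are the probe sets used for the gene and squares the others, and red passed the test over all probe sets. For Hoxd8, Hoxb3 and Hoxd13 the second probe set lies nearer 0 than the first.

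The arrays also differed in RNA quality. The 3′ over 5′ ratio of the actin control probe sets, which rises as amplified RNA gets shorter, was 8.60 on urothelium 5 and 8.40 on mesenchyme 1, against 2.29 to 4.89 on the other 4 arrays. Mesenchyme 1 held the highest mesenchyme signal for 19 of 33 Hox genes, and for 47.1% of all genes. Urothelium 5 held the highest urothelium signal for 14 of 33 Hox genes, and for 28.4% of all genes. Without both mesenchyme 1 and urothelium 5 there were again 7 members higher in urothelium and 3 in mesenchyme, and 9 of the 10 calls remained, Hoxb6 being lost and Hoxb2 gained (1.61). The genes that passed in every fit that left out 1 array were Hoxa9, Hoxb5, Hoxb13, Hoxc10, Hoxd1 and Hoxd8.

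**Figure D5:**
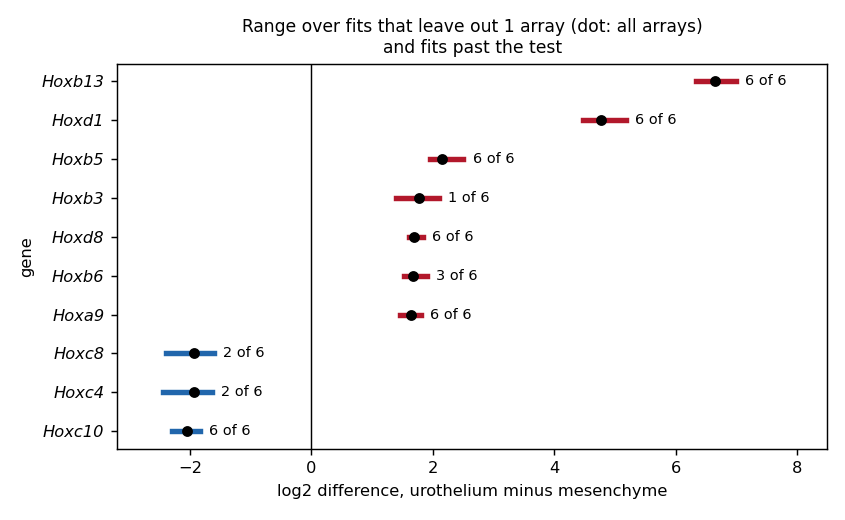
The range of the log2 difference, urothelium minus mesenchyme, over the 6 fits that leave out 1 array (bars) with the value from all arrays (dots) for the 10 Hox genes past the test, and the number of those fits that passed. No bar crosses 0; Hoxb3 passed in 1 of 6 fits, Hoxc4 and Hoxc8 in 2 and Hoxb6 in 3.

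Hox proteins gain much of their DNA specificity from partners of the Pbx, Meis and Pknox families. Of 8 measured cofactor genes 2 were higher in mesenchyme and 0 in urothelium, with a median of −0.82. The shares over all genes were 8.99% and 5.75%. Meis2 had 7775, 5661 and 6320 in urothelium, against 23416, 26969 and 30480 in mesenchyme (−2.03 ± 0.25, limma adjusted p = 0.000250). Meis1 had 4430, 4764 and 6808 in urothelium, against 15830, 19505 and 21715 in mesenchyme (−1.84 ± 0.27, limma adjusted p = 0.000808). Neither overlapped, and no fit that left out 1 array lost these calls, but in the mean of its probe sets Meis1 did not pass (−0.98). The 6 others, Pbx2, Pbx3, Pbx4, Pknox1, Pknox2 and Meis3, lay between −1.41 and 0.31.

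Among 30 measured genes that act upstream of Hox genes (Cdx factors, retinoic acid receptors, Polycomb and Trithorax group genes and others) 1 was higher in mesenchyme and 0 in urothelium, with a median of 0.21. The shares over all genes were 8.99% and 5.75%. The 1 gene was Rarb, a retinoic acid receptor gene, with 2966, 4284 and 4124 in urothelium, against 5660, 9744 and 7408 in mesenchyme (−0.98 ± 0.29, limma adjusted p = 0.0477). That call was lost in 5 of 6 fits that left out 1 array, without urothelium 5 (−0.81), urothelium 7 (−1.08), urothelium 8 (−1.05), mesenchyme 2 (−0.78) or mesenchyme 4 (−0.98), with arrays centred on their medians (−0.75), and without the intensity trend (−0.98).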

How the data were processed

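The deposited table holds 1 array signal intensity per probe set on a linear scale for 6 Affymetrix MOE430 arrays, 3 of each compartment. Per the labels' protocols, total RNA was column purified, amplified in 2 rounds and labelled with biotin. GCOS is named in the submitters' processing notes; which algorithm it ran, and how, is not given in the sources used here. A 2% trimmed mean of 1500 was found on every array, so the authors' scaling was kept; a compartment with more RNA in total would not show it after such scaling. No detection calls were used, and the number of arrays limits the precision.

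Of 45101 probe sets 64 were controls, 34945 had a single symbol, 932 several and 9160 none. The brightest probe set on average stood for each of 18193 genes. RefSeq changed 0 Hox symbols. No build is given for the array, so the only coordinates printed are those of the RefSeq promoters (GRCm38.p6).

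The fit was made on log2(signal + 45), 45 being the 25th percentile over the table, by lmFit and trended eBayes of limma 3.58.1 (R 4.3.3), with Benjamini-Hochberg adjustment. The fit was tested on simulated data. By the naming rule, members past the test have array values, members without overlap or in a paralog group with one past the test have at least their difference, and the rest are covered by their cluster's range; cofactors and regulators past the test and up to 3 markers of a list are also named. The values of Hoxb7, Hoxd11 and Hoxd12, the other cofactors and the Cdx genes were added after they were seen. The members and lists were chosen with earlier results of these data known. Alternatives were other pseudocounts (1 and 179), normalizations, filters and probe set rules, array weights, the actin ratio as a covariate, a 2-fold threshold and leaving out arrays.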

Additional observations from a re-analysis of the deposited data

How the results depend on the processing

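No paired analysis was possible because no replicate number occurs in both compartments. The direction of all 10 Hox calls was the same in every alternative in which the gene was tested. With array weights 17 Hox members passed, 12 higher in urothelium and 5 in mesenchyme, as did 2074 and 3033 of all genes, and among cofactors and regulators 8, with 3 in urothelium and 5 in mesenchyme. When eBayes had no trend, or probe sets were averaged, 5 Hox members were higher in mesenchyme, as were 1657 and 1547 of all 18193 genes. When dimmer genes (below the median signal) were left out, 9 Hox members could be tested, 0 of them from cluster C. Of these 9, 5 passed, 0 of them higher in mesenchyme, as did 876 and 1104 of all 9096 genes tested there in urothelium and mesenchyme. Of the 10 calls of the fit reported 4 were tested there and kept, and Hoxb2 was gained. That filter removed Hoxb3, Hoxb5 and Hoxb6 and the 3 cluster C calls beforehand, so it cannot test them. With the actin ratio as a covariate 6 cofactors and regulators passed, 1 higher in urothelium and 5 in mesenchyme, as did 1381 and 2080 of all genes. The cause of these shifts was not tested, apart from the fewer genes tested under the signal filter.

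Over the fits that left out 1 array, Hox calls numbered 6 to 11, with 5 to 8 higher in urothelium and 1 to 3 in mesenchyme; the lowest total was without mesenchyme 2, and the count in mesenchyme was 1 without urothelium 8, mesenchyme 2 or mesenchyme 4. Cofactor and regulator calls numbered 2 to 5, with 0 to 1 higher in urothelium and 2 to 4 in mesenchyme, the most without mesenchyme 1. Of all genes 652 to 1061 were higher in urothelium, the fewest without urothelium 7, and 1150 to 1703 in mesenchyme. Hox signals near the pseudocount of 45, such as those of Hoxa4, Hoxc5 and Hoxc13, limit what could be detected.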

Other observations

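Other probe sets with a Hox name lie outside the 33 genes: 3 carry the symbols of neighbouring genes and name neither, and 5 belong to antisense RNAs. A probe set annotated to both Hoxd3 and Hoxd4 had signals of 316.2, 248.8 and 400.7 in urothelium, against 24.87, 61.27 and 27.96 in mesenchyme, and differed by 2.15 ± 0.44 (limma adjusted p = 0.0127 over all probe sets). Another with the same annotation was at 6.73 to 16.8 in urothelium and 14.7 to 31.2 in mesenchyme and did not pass. The 2 probe sets of the antisense gene Hoxd3os1 had differences of opposite sign. The first gave 697.6, 1044 and 423.5 in urothelium, against 213.5, 105.5 and 126.9 in mesenchyme (1.94 ± 0.47, limma adjusted p = 0.0302). The second gave 36.6, 12.9 and 3.81 in urothelium, against 222.1, 91.1 and 70.0 in mesenchyme (−1.39 ± 0.42, limma adjusted p = 0.0786). Hoxb5os, antisense to Hoxb5, had 351.9, 547.3 and 784.2 in urothelium and 293.4, 331.8 and 245.0 in mesenchyme, without overlap, and did not pass (0.80 ± 0.43). For Hoxa11os the brighter probe set overlapped between compartments (−0.04 ± 0.40), where Hoxa11 itself did not overlap (−1.01).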
